A study of Mus musculus with 9 samples.

Results

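Of 22701 genes in the deposited table, 33 were silent in every WT liver and read in at least 1 mutant liver. Silent means a normalised read count under 5 in each of the 3 WT libraries, and read means a normalised count of 20 or more in at least 1 of the 6 mutant libraries. A normalised read count is the number of reads in a gene divided by 1 size factor per library. The measured values chose these genes, so that their levels in mutant and WT livers are a description and not a test. The signal was mostly that of single livers: 25 of the 33 genes reached 20 in 1 mutant liver, 8 in 2 livers and 0 in 3 or more. The 3 HP1ag_KO livers together carried 24 of the genes, the 1 HP1ab_KO liver 3 and the 2 HP1a_KO livers 8. Such totals grow with the number of livers, and per liver the counts were 8, 12 and 9 in HP1ag_KO, 3 in HP1ab_KO and 6 and 3 in HP1a_KO.

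RNA was sequenced from livers of 9 mice aged 5 weeks, on a C57BL/6 and 129svPas background. HP1ag_KO (HP1a-/-, HP1gliver-/-; 3 livers) lacked HP1α and had HP1γ deleted in the liver, HP1ab_KO (HP1a-/-, HP1bliver-/-; 1 liver) lacked HP1α and had HP1β deleted in the liver, HP1a_KO (HP1a-/-; 2 livers) lacked HP1α alone, and WT (3 livers) carried none of these deletions. All 6 mutant livers therefore share the loss of HP1α, and what drives the deletion in the liver is not given in the sources used here. Livers are named by genotype and a number that only names the animal. Litters and sex are not labelled, so p-values measure the spread between these samples. The deposited table carries 2 project numbers in its name but no library is tied to either, so that a batch term could not be fitted and the part of a batch in the values of single livers was not tested.

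HP1 proteins bind histone H3 methylated on lysine 9 and each other, and so help to pack chromatin into a compact state in which most genes are not transcribed. HP1α is encoded by Cbx5, HP1β by Cbx1 and HP1γ by Cbx3. Genes with no reads in normal liver include those of other cell types, of the germ line and of the other sex's liver, as well as processed pseudogenes, which are copies of mature transcripts inserted back into the genome.

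Libraries held 16266423 reads in genes (HP1a_KO liver 1) to 36161177 (HP1ab_KO), so that a normalised count of 20 stood for 11 to 26 reads. The targeted transcripts were lower in the livers labelled for them but still read. Cbx3 lay at 380.0, 326 and 343 in HP1ag_KO against 536 to 641 in WT, Cbx1 at 217 in HP1ab_KO against 803 to 1082 in WT, and Cbx5 at 501 to 813 over the 6 mutant livers against 997 to 1542 in WT. Alb, the albumin transcript of hepatocytes, ran from 2196150 to 2550225 in mutant livers and from 1726290 to 2489715 in WT. Intervals and limits given here cover counting error only.

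HP1ag_KO liver 2 carried the largest number of the genes, with 12 at 20 or more, 8 of them in that liver alone. HP1ag_KO liver 3 carried 9 genes (5 alone) and HP1ag_KO liver 1 carried 8 (5 alone). The HP1ab_KO liver carried 3 (1 alone), HP1a_KO liver 1 carried 6 (5 alone) and HP1a_KO liver 2 carried 3 (1 alone). Of 7080 genes under 5 in each WT library, the 33 are 0.466%. By genotype, 23 genes reached 20 in HP1ag_KO livers only, 1 in HP1ab_KO only and 7 in HP1a_KO only. Obp2a reached it in HP1ag_KO and HP1ab_KO, and Ifi44l in HP1ab_KO and HP1a_KO. No gene reached 20 in all 3 HP1ag_KO livers, and 5 reached it in 2 of them. The signal was also low: 9 genes passed 50 in their highest liver and 4 passed 100. In 10 genes the second highest mutant liver was under 5, and in 17 it was under 10.

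**Figure D1:**
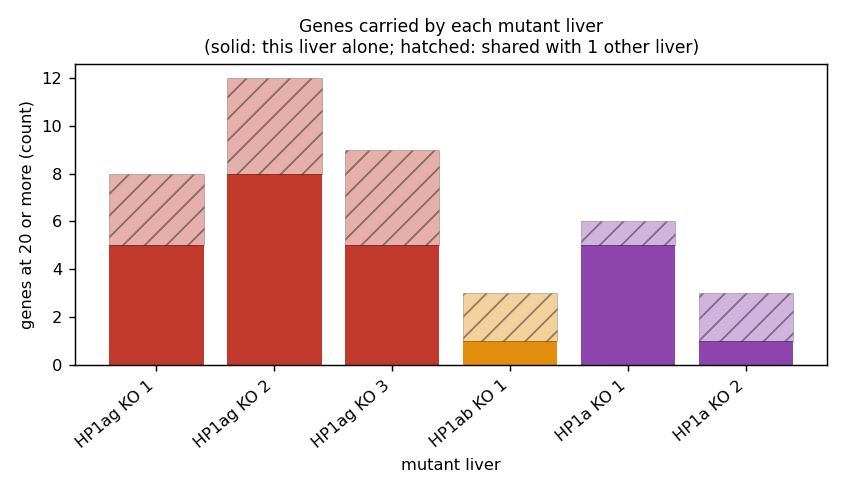
Number of the 33 genes at a normalised read count of 20 or more in each mutant liver, with the genes of that liver alone as the solid part of the bar and those shared with 1 other liver hatched. HP1ag_KO liver 2 carried the most, 12, and the HP1ab_KO liver and HP1a_KO liver 2 the fewest, 3 each.

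**Figure D2:**
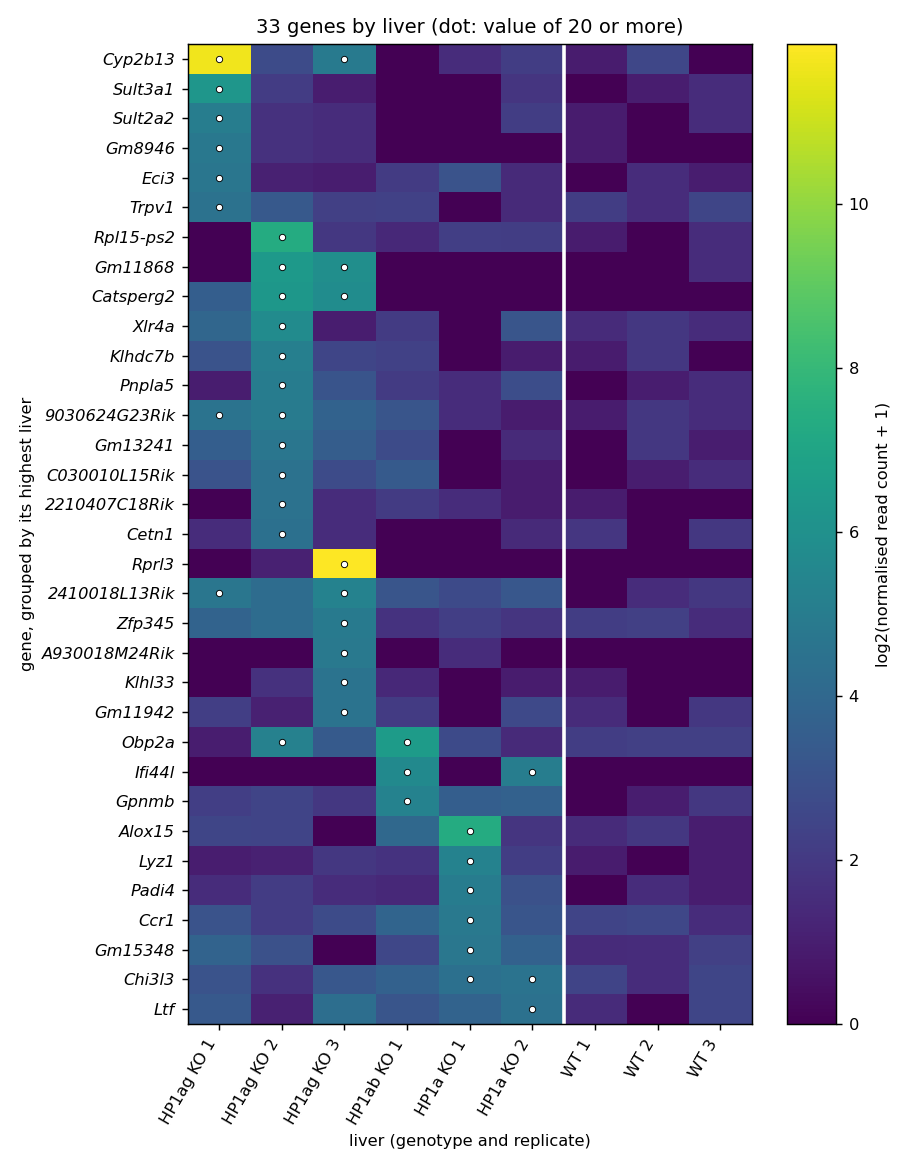
The 33 genes (rows, grouped by their highest liver) in the 9 livers (columns), coloured by log2(normalised read count + 1), with a dot at each value of 20 or more. Dots stand mostly alone in their row, and the WT columns to the right of the white line hold none, as the choice of genes requires.

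A looser measure is whether all livers of a genotype stood above every WT liver. In 11 of the 33 genes each HP1ag_KO liver exceeded the highest WT value, where 5.95% of all 22701 genes and 5.2% of the WT-silent genes did so. In 9 genes both HP1a_KO livers did, against 10.9% of all genes and 4.83% of the WT-silent ones. In 20 genes the HP1ab_KO liver did, against 21.6% and 21.3%. The genes were picked for a high mutant value, so that nothing is read from these counts. In 2 genes, 2410018L13Rik and Gpnmb, all 6 mutant livers exceeded every WT liver.

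A small set was read in several HP1ag_KO livers. The intergenic noncoding RNA 2410018L13Rik (ENSMUSG00000073164, chromosome 12, 22953997 to 23010284, minus strand, GRCm38) had normalised counts of 24.6, 17.9 and 37.9 in HP1ag_KO livers 1, 2 and 3, 7.99 in HP1ab_KO and 5.50 and 8.60 in HP1a_KO, against 0, 1.90 and 2.81 in WT. The 3 HP1ag_KO livers were the highest, the 3 livers of the other mutants came next, and no mutant liver overlapped with WT. However, HP1a_KO liver 1, the library of lowest depth, had the same 3 reads as WT liver 3. The gene 9030624G23Rik lies 1032918 bp away on the same chromosome and strand (24043202 to 24097246). It had 22.8, 30.3 and 12.3 in HP1ag_KO, 7.99 in HP1ab_KO and 1.83 and 0.860 in HP1a_KO, against 0.889, 2.86 and 1.87 in WT. HP1ag_KO and HP1ab_KO lay above WT here, while HP1a_KO overlapped with it. Both gene models carry no gene name, and were described for their pattern after their values were seen.

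Zfp345, a gene of the zinc finger family of DNA-binding proteins (chromosome 2, 150470991 to 150485091), had 12.8, 17.9 and 28.4 in HP1ag_KO, 2.40 in HP1ab_KO and 3.67 and 2.58 in HP1a_KO, against 3.56, 3.81 and 1.87 in WT. Its HP1ag_KO livers stood apart from the other 6, which overlapped. It was the only one of the 33 among 354 zinc finger genes in the table, 21 of which were silent in WT.

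The promoters of 2410018L13Rik and Zfp345 are shown because these transcripts were higher in each HP1ag_KO liver than in any other liver, yet their start regions differ in base composition. They are from RefSeq on GRCm38.p6, 250 bases before to 50 after the start, minus strand, with each CG pair in capitals. The first lies at chr12:23010194-23010493 and holds 31 CG pairs, the second at chr2:150485014-150485313 and holds 4.
2410018L13Rik promoter: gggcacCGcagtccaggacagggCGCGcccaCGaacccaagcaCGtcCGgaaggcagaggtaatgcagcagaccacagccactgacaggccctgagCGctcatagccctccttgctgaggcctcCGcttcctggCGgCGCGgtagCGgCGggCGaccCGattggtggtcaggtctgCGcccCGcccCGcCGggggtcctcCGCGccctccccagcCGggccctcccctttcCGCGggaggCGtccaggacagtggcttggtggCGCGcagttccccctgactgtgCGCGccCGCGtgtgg
Zfp345 promoter: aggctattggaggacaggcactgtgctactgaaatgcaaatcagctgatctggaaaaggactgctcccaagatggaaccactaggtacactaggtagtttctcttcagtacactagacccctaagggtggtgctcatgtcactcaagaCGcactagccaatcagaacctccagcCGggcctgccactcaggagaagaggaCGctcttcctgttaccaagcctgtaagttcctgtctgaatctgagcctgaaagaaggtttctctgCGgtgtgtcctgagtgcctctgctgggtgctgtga

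Catsperg2 encodes a subunit of CatSper, the calcium channel of the sperm tail (chromosome 7, 29697219 to 29727032). It had 10.9, 78.5 and 54.9 in HP1ag_KO livers 1 to 3, 0 in HP1ab_KO and 0 in both HP1a_KO livers, against 0 in each WT liver. Its 12, 70 and 58 reads thus all came from HP1ag_KO livers, and a count of 0 reads allows a normalised count of up to 2.86 in a WT library. The near-identical copy Catsperg1, 97.3% identical over 54.4% of the transcript, had 9.11, 25.8 and 16.1 in HP1ag_KO, 5.59 in HP1ab_KO and 3.67 and 2.58 in HP1a_KO, against 16.0, 10.5 and 9.36 in WT. Catsperg1 thus had reads in each WT liver, and its HP1ag_KO and WT livers overlapped.

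Gm11868, a processed pseudogene on chromosome 4 (18844202 to 18845679), was high in the same pair of livers. It had 0, 85.2 and 59.6 in HP1ag_KO livers 1 to 3, 0 in HP1ab_KO and both HP1a_KO livers, and 0, 0 and 1.87 in WT. HP1ag_KO livers 2 and 3 held nearly all of its reads, while HP1ag_KO liver 1 was at 0 like most other livers. Its sequence is 98.0% identical to the Cyb5r4 transcript over 96.3% of its length, and Cyb5r4 had 837 to 925 in HP1ag_KO and 879.9 to 1040.4 in WT. Whether reads of Cyb5r4 were counted there was not tested.

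**Figure D3:**
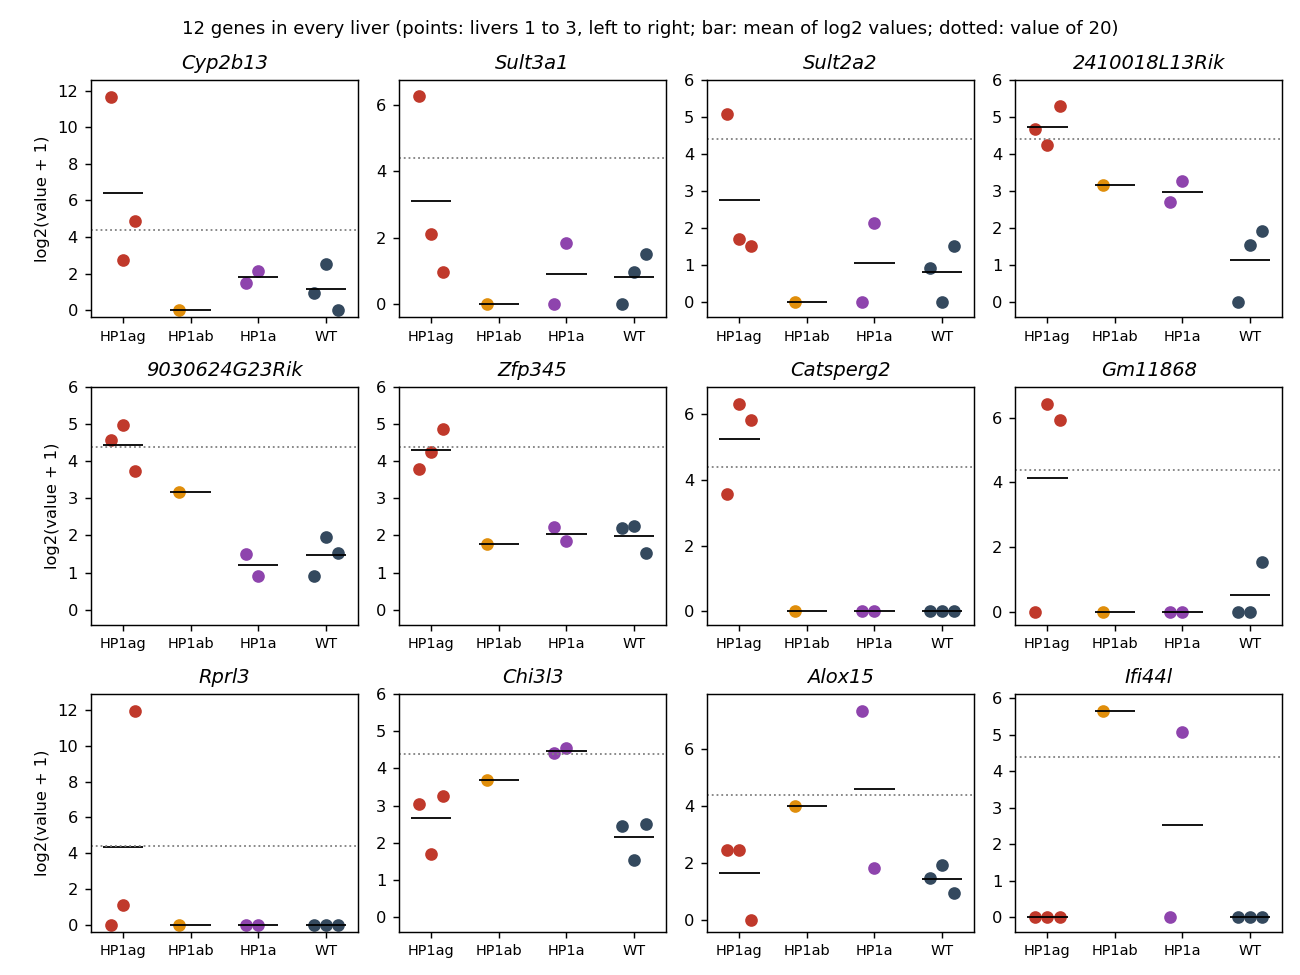
Log2(normalised read count + 1) of 12 of the 33 genes in every liver, with HP1ag_KO, HP1ab_KO, HP1a_KO and WT from left to right, points for livers in the order of their numbers, a bar at the mean of the log2 values and a dotted line at a count of 20. In 2410018L13Rik, 9030624G23Rik, Zfp345 and Catsperg2 the 3 HP1ag_KO points lie above all WT points, while in Cyp2b13, Sult3a1, Sult2a2, Rprl3 and Alox15 1 point stands far from the rest.

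HP1ag_KO liver 1 carried genes normally higher in female than in male mouse liver. Cyp2b13, a female-biased cytochrome P450 (ENSMUSG00000040583, chromosome 7, 26061497 to 26096197), had 3277, 5.61 and 28.4 in HP1ag_KO livers 1, 2 and 3, 0 in HP1ab_KO and 1.83 and 3.44 in HP1a_KO, against 0.889, 4.76 and 0 in WT. Each HP1ag_KO liver exceeded each WT liver, but liver 2 did so with the same 5 reads as WT liver 2, and liver 1 exceeded all others by far. Per kilobase of exons, its highest level (1748) was the second of the genes with annotated exons, after Rprl3 (13587).

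The sulfotransferases Sult3a1 and Sult2a2, which add sulfate groups to steroids and foreign compounds, showed the same liver. Sult3a1 had 75.6, 3.36 and 0.946 in HP1ag_KO, 0 in HP1ab_KO and 0 and 2.58 in HP1a_KO, against 0, 0.952 and 1.87 in WT. Sult2a2 had 32.8, 2.24 and 1.89 in HP1ag_KO, 0 in HP1ab_KO and 0 and 3.44 in HP1a_KO, against 0.889, 0 and 1.87 in WT. Apart from HP1ag_KO liver 1, no liver passed 4 in either gene. Sult2a2 shares 98.5% of 70.9% of its transcript with Sult2a1, which had at most 5.47 in any liver, so the counts of this pair are uncertain.

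The Cyp2b13 and Sult3a1 promoters are shown as those of the 2 genes of this group that reached the most in HP1ag_KO liver 1, both on the plus strand (RefSeq, GRCm38.p6, CG pairs in capitals). The first is at chr7:26061245-26061544 with 2 CG pairs, the second at chr10:33857472-33857771 with 0.
Cyp2b13 promoter: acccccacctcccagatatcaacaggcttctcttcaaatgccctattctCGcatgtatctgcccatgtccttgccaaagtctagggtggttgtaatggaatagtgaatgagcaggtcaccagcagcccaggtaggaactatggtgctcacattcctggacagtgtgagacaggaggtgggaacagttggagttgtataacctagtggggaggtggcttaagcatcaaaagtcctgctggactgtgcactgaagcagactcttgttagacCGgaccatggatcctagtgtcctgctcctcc
Sult3a1 promoter: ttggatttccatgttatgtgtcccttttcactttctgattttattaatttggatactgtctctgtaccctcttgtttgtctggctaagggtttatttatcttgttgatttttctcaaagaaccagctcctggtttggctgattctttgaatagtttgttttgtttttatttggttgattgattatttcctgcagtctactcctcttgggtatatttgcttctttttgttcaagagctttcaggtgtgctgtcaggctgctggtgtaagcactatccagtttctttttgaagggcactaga

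Of 35 female-biased genes measured, 10 were silent in WT and these 3 entered the set. The other 32 summed to 43843, 16169.7 and 21981 in HP1ag_KO livers 1 to 3, 12635 in HP1ab_KO and 21916 and 18191 in HP1a_KO, against 8006, 17139.8 and 15427 in WT. HP1ag_KO liver 1 was the highest and WT liver 1 the lowest, and HP1ag_KO liver 2 lay within the WT range. Limma called 0 of the 26 list genes it tested in HP1ag_KO against WT. DESeq2 on the recovered reads called 8 of them higher and 0 lower, where it called 0.391% of all genes higher. The median log2 difference of the 26 genes was 1.58, against -0.01 over all genes tested. The 26 include Cyp2b13, which was picked for its high value in HP1ag_KO liver 1 and to which DESeq2 gave no p-value. In HP1a_KO against WT, which shares the WT livers, limma called 0 of the 26, DESeq2 called 3 higher and 0 lower, where it called 0.491% of all genes higher, and the median was 1.09. The Y-linked gene Ddx3y was read in each liver, at 3036 to 4211 in mutants and 3833 to 4549 in WT, and Xist, the RNA that silences an X chromosome in females, reached 14.6 at most in mutants and 11.2 in WT.

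**Figure D4:**
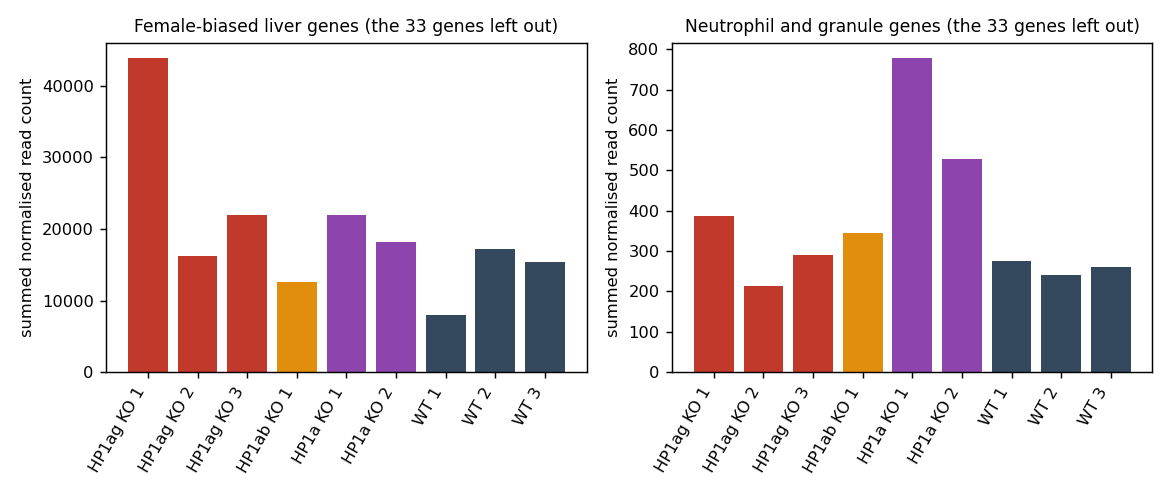
Summed normalised read counts of the female-biased genes (left) and of the neutrophil and granule genes (right) in each liver, leaving out the 33 genes described here. The female-biased sum was highest in HP1ag_KO liver 1 (43843) and the neutrophil sum in HP1a_KO liver 1 (778).

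The other genes of HP1ag_KO liver 1 were low. Gm8946 reached 26.4 there, Eci3, an enoyl-CoA isomerase of fatty acid oxidation, 24.6, and Trpv1, the capsaicin receptor of sensory neurons, 21.9. Eci3 was next highest in HP1a_KO liver 1 (7.34) and Trpv1 in HP1ag_KO liver 2 (8.97). Trpv1 stood at 1.90 to 4.68 in WT, so that its HP1ag_KO and WT livers overlapped.

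HP1ag_KO liver 2 held the longest list. Its highest value was the ribosomal protein pseudogene Rpl15-ps2, with 0, 163 and 2.84 in HP1ag_KO livers 1 to 3, 1.60 in HP1ab_KO and 3.67 and 3.44 in HP1a_KO, against 0.889, 0 and 1.87 in WT. The parent gene Rpl15, 99.1% identical over 72.6% of the pseudogene, had 2943 to 3165 in HP1ag_KO and 2960.0 to 3265 in WT. A second near-identical pseudogene, Gm10020, was also highest in that liver, with 4.56, 88.6 and 7.57 in HP1ag_KO against 2.67, 4.76 and 5.62 in WT, and another, Gm8420, had reads in that liver alone (17.9). Copies of Rpl15 of this kind can share reads, so that no single locus can be given as their source.

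Of the genes at 20 or more in that liver alone, the next highest was Xlr4a, of the X-linked lymphocyte-regulated family, with 14.6, 52.7 and 0.946 in HP1ag_KO, 3.20 in HP1ab_KO and 0 and 7.74 in HP1a_KO, against 1.78, 2.86 and 1.87 in WT. Liver 3 of HP1ag_KO lay below WT, so the groups overlapped. Its copy Xlr4b, 98.9% identical, was also highest in HP1ag_KO liver 2 (21.3), with 4.73 to 6.38 in the other HP1ag_KO livers and 1.90 to 7.49 in WT. Klhdc7b, a kelch-repeat protein, had 7.29, 34.8 and 4.73 in HP1ag_KO and 0 to 2.86 in WT. Pnpla5, a lipase of the patatin-like family, had 0.911, 31.4 and 7.57 in HP1ag_KO and 0 to 1.87 in WT. Cetn1, a centrin of the male germ line, had 1.82, 20.2 and 1.89 in HP1ag_KO and 0 to 2.81 in WT. Klhdc7b thus lay above WT in each HP1ag_KO liver, and Pnpla5 and Cetn1 overlapped with it.

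Gm13241, C030010L15Rik and 2210407C18Rik reached 24.7, 21.3 and 21.3 in HP1ag_KO liver 2. Gm13241, a processed pseudogene, and C030010L15Rik, an antisense RNA, were above every WT liver in each HP1ag_KO liver. Gm13241 is 96.6% identical to the Cdv3 transcript over 68.5% of its length. Cdv3 had 3509 to 4186 in HP1ag_KO and 3954 to 4853 in WT. C030010L15Rik overlaps the gene B230307C23Rik on the opposite strand. Whether reads of these genes were counted there was not tested. Obp2a, a lipocalin that binds odorants, joined HP1ag_KO liver 2 with HP1ab_KO. It had 0.911, 37.0 and 9.46 in HP1ag_KO, 91.9 in HP1ab_KO and 5.50 and 1.72 in HP1a_KO, against 3.56, 3.81 and 3.75 in WT. The 2 livers above 20 had different genotypes, and HP1ag_KO liver 1 lay below WT.

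In HP1ag_KO liver 3 a single noncoding RNA stood out. Rprl3 (ENSMUSG00000088025), annotated as a ribozyme and named for its likeness to the RNA of ribonuclease P, which trims the leading end of transfer RNA precursors, had 0, 1.12 and 3940.3 in HP1ag_KO livers 1 to 3, 0 in HP1ab_KO and both HP1a_KO livers, and 0 in each WT liver. That is 4164 reads in HP1ag_KO liver 3 (95% Poisson interval of the normalised count 3822 to 4062), 1 read in HP1ag_KO liver 2 and 0 in the other 7 livers. The 290-base transcript is shown because it accounts for the highest value of the set and lies close in sequence to other loci. It is from GENCODE M21, GRCm38, chr8:3803069-3803358, minus strand, with capitals at the 23 bases that differ from Rprl2 in the alignment of this pair.
Rprl3 transcript: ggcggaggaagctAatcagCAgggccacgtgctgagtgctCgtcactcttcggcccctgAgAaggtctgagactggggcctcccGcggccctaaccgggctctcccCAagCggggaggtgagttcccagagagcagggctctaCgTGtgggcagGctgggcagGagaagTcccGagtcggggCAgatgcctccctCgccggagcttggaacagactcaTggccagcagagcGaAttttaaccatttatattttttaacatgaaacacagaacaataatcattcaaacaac

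Rprl3 was 92.1% identical to Rprl2 and Rprl1, neither analysed here, and 78.3% identical to Rpph1, the RNA of ribonuclease P itself. Rpph1 was read in every liver, at 103517, 112671 and 68459 in HP1ag_KO livers 1 to 3, 145503 in HP1ab_KO and 145044 and 124693 in HP1a_KO, against 123816, 93642 and 96441 in WT. HP1ag_KO liver 3, the liver with Rprl3, had the lowest Rpph1 value. Whether reads moved between these loci was not tested.

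The other genes of HP1ag_KO liver 3 were A930018M24Rik with 27.4, Klhl33, a kelch-like protein, with 22.7, and Gm11942, a processed pseudogene, with 22.7. A930018M24Rik was at 0 in each WT liver and Klhl33 at 0.889 at most. Gm11942 is 97.4% identical to Rplp1, a ribosomal protein gene at 7285 to 8194 in HP1ag_KO and 6899 to 7856 in WT. Its other copy, Gm10073, was also highest in HP1ag_KO liver 3, with 10.9, 5.61 and 136 in HP1ag_KO against 13.3, 7.62 and 4.68 in WT.

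HP1a_KO livers carried the 2 genes of the neutrophil and granule list. Chi3l3 (Chil3), a chitinase-like protein of macrophages and neutrophils, was the only gene at 20 or more in both HP1a_KO livers. It had 7.29, 2.24 and 8.52 in HP1ag_KO, 12.0 in HP1ab_KO and 20.2 and 22.4 in HP1a_KO, against 4.45, 1.90 and 4.68 in WT. Its HP1a_KO livers were the highest and stood apart from WT, with HP1ab_KO next, while HP1ag_KO overlapped with WT. Ltf, lactoferrin of neutrophil granules, had 9.11, 1.12 and 18.9 in HP1ag_KO, 7.99 in HP1ab_KO and 12.8 and 20.6 in HP1a_KO, against 1.78, 0 and 4.68 in WT. Here too HP1a_KO and HP1ab_KO lay above WT and HP1ag_KO overlapped.

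The 5 genes that reached 20 in HP1a_KO liver 1 alone came from the library of lowest depth. Alox15, a lipoxygenase of macrophages and eosinophils, had 4.56, 4.49 and 0 in HP1ag_KO, 15.2 in HP1ab_KO and 159.6 and 2.58 in HP1a_KO, against 1.78, 2.86 and 0.936 in WT. HP1a_KO liver 1 was alone at this level, with 87 reads, and HP1a_KO liver 2 lay within WT. Lyz1, a lysozyme, had 38.5 and 3.44 in HP1a_KO and 0 to 0.936 in WT. Padi4, an enzyme of granulocytes that turns arginine into citrulline, had 31.2 and 6.88 in HP1a_KO and 0 to 1.90 in WT. Ccr1, a chemokine receptor of myeloid cells, had 27.5 and 7.74 in HP1a_KO and 1.87 to 4.76 in WT. In Lyz1, Padi4 and Ccr1 both HP1a_KO livers exceeded WT, liver 2 by little. HP1ab_KO did so in Lyz1 (2.40) and in Ccr1 (13.6, above HP1a_KO liver 2) but not in Padi4 (1.60). HP1ag_KO overlapped with WT in each of these genes. Lyz1 is 95.8% identical to Lyz2, the lysozyme of macrophages, which was also highest in HP1a_KO liver 1 (2752, against 1464 to 1792 in WT), so that reads may be shared. Gm15348, an intergenic noncoding RNA, reached 25.7 in HP1a_KO liver 1.

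Of 18 neutrophil and granule genes, all measured, 10 were silent in WT, and 2 of these, Chi3l3 and Ltf, entered the set. The other 16 summed to 386, 213 and 291 in HP1ag_KO, 346 in HP1ab_KO and 778 and 527 in HP1a_KO, against 275, 240.0 and 260.3 in WT. Both HP1a_KO livers were above all others. Ly6g, a defining neutrophil marker, had 1.83 and 0.860 in HP1a_KO, or 1 read in each liver, and was at 0 in the other 7. Of the 18 genes, 2 to 6 were at 0 in an HP1ag_KO liver, 4 in HP1ab_KO, 0 or 1 in HP1a_KO and 5 in each WT liver. Limma called 0 of the 7 list genes it tested in HP1a_KO against WT and DESeq2 called 2 higher, where it called 0.491% of all genes higher. The 28 acute phase proteins summed to 1265656, 876279 and 884382 in HP1ag_KO, 1328653 in HP1ab_KO and 2446899 and 1390166 in HP1a_KO, against 856665 to 955189.8 in WT. They were thus above WT in HP1ag_KO liver 1 and HP1ab_KO as well as in both HP1a_KO livers. In bulk tissue more cells of a type and more RNA per cell cannot be told apart, and the part of either in these genes was not tested.

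HP1ab_KO, with 1 liver, carried Obp2a, Ifi44l and Gpnmb. Gpnmb, a glycoprotein of macrophages and pigment cells, had 3.65, 4.49 and 2.84 in HP1ag_KO, 38.4 in HP1ab_KO and 11.0 and 12.0 in HP1a_KO, against 0, 0.952 and 2.81 in WT. Every mutant liver exceeded every WT liver, but HP1ag_KO liver 3 had the same 3 reads as WT liver 3. Ifi44l, an interferon-induced gene, was at 0 in each HP1ag_KO liver, 49.5 in HP1ab_KO and 0 and 32.7 in HP1a_KO, and at 0 in each WT liver. It was thus all or none: 62 and 38 reads in a pair of livers of different genotype, and 0 reads in the other 7. The 38 measured genes of the interferon-stimulated list, which does not hold it, summed to 29169.9 in HP1ab_KO and 25782 and 29629 in HP1a_KO against 26148 to 37491 in WT. Its paralogue Ifi44 was read in every liver, at 376 in HP1ab_KO and 249.5 and 334 in HP1a_KO against 203 to 351 in WT.

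Of 20 gene lists for liver, blood and neighbouring tissues, 2 held any of the 33. Female-biased genes held 3 and neutrophil genes 2, and the other 18 lists held 0. These 18 included germline and meiosis genes, of which 39 were measured and 28 were silent in WT (Catsperg2 and Cetn1 are not on that list), skeletal muscle genes, of which 17 were measured and 13 were silent, and pancreatic acinar genes, of which 13 were measured and 9 were silent. Of 63 olfactory and vomeronasal receptor genes 53 were silent in WT and 0 entered, and of 23 clustered protocadherins 9 were silent and 0 entered. By annotation 23 of the 33 were protein-coding (69.7%, against 72.7% of all 22701 genes) and 4 processed pseudogenes (12.1%, against 6.38%). Intergenic noncoding RNAs were 2 (6.06%, against 3.31%), antisense RNAs 1 (3.03%, against 4.13%) and ribozymes 1 (3.03%, against 0.0264%). The remaining 2 were not in GENCODE M21. Unnamed gene models made up 11 of the 33, against 3964 of the 7080 WT-silent genes and 6128 of all 22701.

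The limits cut through a continuous range. The genes just inside were Cetn1 (20.2), Ltf (20.6) and 2210407C18Rik (21.3), and those just outside were Ngp (19.9) and Gm9008 (18.9), with BC016579 between them. On the WT side, Cyp2b13 and Ccr1 (both 4.76) were just inside, and Bhlha15 (5.34), Gm10478 and Slc4a9 (both 5.62) just outside. Ngp, a neutrophil granule gene, had its 19.9 in HP1ag_KO liver 3.

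Tests across all genes covered few of these genes, since 8 of the 33 averaged 10 or more. Those 8 passed because of the livers in which they were high. They were Cyp2b13, Obp2a, Gm11868, Catsperg2, 2410018L13Rik, Rprl3, Rpl15-ps2 and Alox15. Limma called 0 of the 8 and 0.0% of the 13845 genes tested in each of 5 comparisons, with 1050 genes at an unadjusted p under 0.05 in HP1ag_KO against WT, 1404 in HP1a_KO against WT and 512 in HP1ab_KO against WT. The quasi-likelihood test of edgeR also called 0. DESeq2 called 0.716% of genes in HP1ag_KO against WT, 0.712% in HP1a_KO against WT and 0.0796% in HP1ab_KO against WT. It gave an adjusted p to 5 of the 33 genes in HP1ag_KO against WT and called 1, 2410018L13Rik, with a log2 difference of 4.12 ± 0.886 SE (DESeq2 adjusted p = 0.00163), against 3.58 ± 0.586 on the log2(value + 1) scale of limma (adjusted p = 0.232). The genes were chosen on this contrast, and nothing is read from the call. DESeq2 gave no p-value for Cyp2b13, Rprl3 or Rpl15-ps2, each of which was highest by far in 1 library. Of these, Cyp2b13 also reached 28.4 in HP1ag_KO liver 3.

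HP1ag_KO and HP1a_KO differ by the liver deletion of HP1γ. Limma called 0 of the same 8 genes here (0.0% of 13845, with 2240 at an unadjusted p under 0.05), and its widest difference relative to error was that of Catsperg2 (adjusted p = 0.127). Catsperg2 had reads in HP1ag_KO livers only and entered the set and passed the filter through them, so nothing is read from this value. DESeq2 called 3.37% of genes in this comparison. It gave an adjusted p to 4 of the 33 and called 1, Alox15, lower in HP1ag_KO by a log2 difference of -4.74 ± 1.36 SE (DESeq2 adjusted p = 0.0227, limma -2.94 ± 1.48 and adjusted p = 0.372). Alox15 entered the set and passed the filter through HP1a_KO liver 1 (159.6), and nothing is read from this call either, since HP1a_KO liver 2 had 2.58 and the HP1ag_KO livers 0 to 4.56.

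Of 33 genes, 20 had a RefSeq promoter. These were poor in CG pairs, with a median of 4, against 7 in the 2656 promoters of the other WT-silent genes and 19 over all genes of the table with a promoter. At least 10 CG pairs were found in 2 of the 20 (10.0%), 2410018L13Rik and Eci3, against 43.0% of the other WT-silent genes and 72.9% of all genes in the table. Motifs were searched on both strands. TTCNNNGAA, the sequence that STAT factors bind, was in 2 of 20 (Chi3l3 and Sult3a1). Among genes with a promoter, it was in 8.96% of the other WT-silent genes and 8.57% of all genes in the table. In the same order, TATAAA was in 4 of 20, 14.8% and 10.6%, and CACGTG in 2, 6.93% and 10.5%. GGGCGG was in 3, 38.5% and 59.9%, TGACGTCA in 1, 1.73% and 3.03%, and TCCCGC in 1, 20.9% and 34.4%. GGGCGG and TCCCGC, both rich in C and G, can overlap. A match is a description and not a binding site.

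Genes around the 33 were looked up to see whether the signal spread along the chromosome. Of 131 other genes in the table within 100 kb of the annotated members, 73 averaged 10 or more. Limma called 0 of these in the 3 comparisons with WT, and DESeq2 called 6 in HP1ag_KO against WT (8.22%, against 0.716% of all genes), 4 higher and 2 lower. DESeq2 called 0 of the 73 in HP1a_KO against WT and 0 in HP1ab_KO against WT. In HP1ag_KO against WT the median log2 difference of the 73 was 0.06, against -0.01 over all genes. Of the 33 genes, 24 reached 20 in HP1ag_KO livers, so nothing is read from the share called. Whether the signal spread was not tested. Cyp2b9, a female-biased cytochrome P450 77214 bp from Cyp2b13, had 6684, 339.8 and 808 in HP1ag_KO, 88.7 in HP1ab_KO and 328 and 287 in HP1a_KO, against 10.7, 134 and 101 in WT (log2 difference 5.00, DESeq2 adjusted p = 0.0154, limma adjusted p = 0.526). HP1ag_KO liver 1 was the highest in both genes of this pair. Cyp2b9 was read in WT, unlike Cyp2b13.

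Gm13251, 5040 bp from the pseudogene Gm13241 on chromosome 4, had 252, 637 and 393 in HP1ag_KO, 236 in HP1ab_KO and 134 and 104 in HP1a_KO, against 38.2, 101 and 89.0 in WT (log2 difference 2.50, DESeq2 adjusted p = 1.95e-06, limma adjusted p = 0.258). Like Gm13241, it was highest in HP1ag_KO liver 2, and each mutant liver exceeded every WT liver. Gm13245, 4556 bp from Gm13241, had 2.73, 16.8 and 6.62 in HP1ag_KO, 6.39 in HP1ab_KO and 0 in both HP1a_KO livers, against 0.889, 0 and 0 in WT, and missed the limit of 20. Pnpla3, a lipase 44662 bp from Pnpla5, had 72.0, 133 and 72.9 in HP1ag_KO against 17.8, 25.7 and 40.3 in WT (DESeq2 adjusted p = 0.0121, limma adjusted p = 0.394). Both lipases were highest in HP1ag_KO liver 2. Zfp84, 41520 bp from Catsperg2, had 463, 461 and 398 in HP1ag_KO against 278, 254 and 324 in WT (DESeq2 adjusted p = 0.0173, limma adjusted p = 0.382). Arsa, near Klhdc7b, and Colec12, near Cetn1, were the 2 called lower.

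Genes whose pattern over the 9 libraries was most like the 3 with the highest mutant means were taken by Pearson's r of log2(value + 1), as a description. For Cyp2b13 they were the female-biased P450 Cyp2a22 (r = 0.98), Igkv1-88 (0.96) and Sult2a5 (0.96), all highest in HP1ag_KO liver 1. For Alox15 they were Alox5ap (0.95), Adcyap1r1 (0.94) and Lyz2 (0.93), all highest in HP1a_KO liver 1. For Rprl3 they were Grin1, Dbndd1 and Hephl1 (each 0.996), which had 1 read in HP1ag_KO liver 3 and 0 elsewhere. The values for Rprl3 rest on 1 library. Second highest was HP1ag_KO liver 3 in Cyp2b13 and its matches, and HP1ab_KO in Alox15 and its matches. How far their values rest on the highest liver alone was not tested.

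The reverse search gives a scale for the count. With the limits exchanged between HP1ag_KO and WT, which have 3 livers each, 24 of 7080 genes (0.339%) were silent in WT and read in HP1ag_KO, and 12 of 6758 (0.178%) were silent in HP1ag_KO and read in WT. Of the 24, 5 reached 20 in 2 livers, and of the 12, 1 did (Fmr1nb, at 0 in each HP1ag_KO liver, and at 33.8 and 89.9 in WT livers 1 and 3 and just under 20 in WT liver 2). The median highest value was 30.8 in the first set and 56.9 in the second. The second set also held high values of single livers, though none as high as Rprl3 or Cyp2b13, such as Gm8730 with 1310.1 in WT liver 1 and at most 3.79 in HP1ag_KO, and Ren1, which encodes renin, with 266 in WT liver 1 and at most 0.946 in HP1ag_KO. BC018473 had 457 in WT liver 1 but also 286 in HP1a_KO liver 1 and 135 in HP1ab_KO. WT liver 1 carried most of the second set: without it, 2 genes were silent in HP1ag_KO and read in WT. Silent in WT and read in HP1ag_KO were then 38, as also without WT liver 2 or 3, since fewer livers had to be silent. Without HP1ag_KO liver 2, 15 genes were silent in WT and read in HP1ag_KO, and 23 were silent in HP1ag_KO and read in WT. With a liver left out, the searches set 2 livers against 3. The difference between 24 and 12 was not tested.

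**Figure D5:**
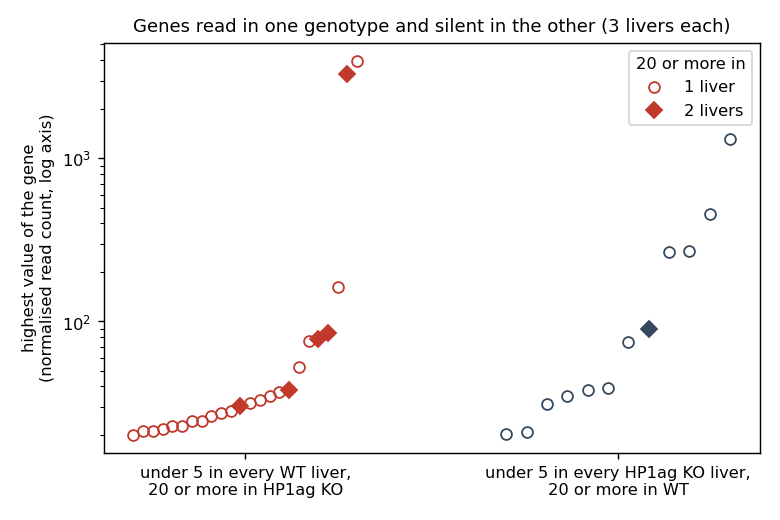
Highest normalised read count (log axis) of each gene silent in WT and read in HP1ag_KO (left, 24 genes) and of each gene silent in HP1ag_KO and read in WT (right, 12 genes), sorted by value, with open circles for genes at 20 or more in 1 liver and filled diamonds for 2 livers. Both sets consist mainly of genes of 1 liver, and single values above 1000 stand in both.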

How the data were processed

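Per the labels' protocols, RNA from frozen liver was depleted of ribosomal RNA and made into strand-specific libraries. Per the submitters' processing notes, TopHat2 2.0.10, Bowtie2 2.1.0, CASAVA 1.8.2, DESeq2 1.0.19, HTSeq 0.5.4p3 and the build mm10 (GRCm38) were used, with no step assigned to each. How the authors counted by strand, and with which annotation, is not given in the sources used here. Overlapping, antisense and near-identical genes may therefore share reads. The authors deposited a normalised signal, which behaves as counts over 1 size factor in each library: whole reads were recovered for 100% of values (tolerance 0.1 read). Pairs of replicates differed by more than sampling (chi-square over degrees of freedom 49.0 to 125).

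Genes were selected in Python 3.11.15 (numpy 2.4.6, pandas 2.3.3, scipy 1.17.1, matplotlib 3.10.9). The members and lists were chosen with earlier results of these data known. GENCODE M21 held 31 of the 33 genes and 22257 of 22701 in all. Limma 3.58.1 (R 4.3.3) tested log2(value + 1) with a mean trend, for genes with a mean of at least 10, all 4 groups in 1 fit, at a Benjamini-Hochberg adjusted p under 0.05. The fit takes the single HP1ab_KO library to vary as the other groups do. Differences on that scale understate those of low genes. DESeq2 1.42.0 and edgeR 4.0.16 used the recovered reads, and all 3 were tested on simulated data. Copies were transcripts of at least 95% identity over at least 50% of a member's length (blastn 2.17.0). Named were members at 20 or more in both HP1a_KO livers, up to 5 per single liver, list members, edge genes and the closest patterns. Other genes, and unnamed models below the 3 highest of a class, were named after their values were seen. A count of 0 allows up to 3 reads, for counting error only.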

Additional observations from a re-analysis of the deposited data

Results flagged for a closer look

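In 5 genes every HP1ag_KO liver lay above the WT mean and every HP1a_KO liver below it. The genes were picked for a high mutant value, the share of all genes with this pattern was not counted, and nothing is read from it. The genotypes share the WT livers. The difference between the effects was not tested beyond limma without a filter on low values, which called 0 of 22701 genes in HP1ag_KO against HP1a_KO (3006 at an unadjusted p under 0.05). All 5 genes have a mean under 10.

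9030624G23Rik showed the widest difference, 20.4 normalised counts, between 21.8 ± 9.03 in HP1ag_KO (SD, n = 3) and 1.35 ± 0.689 in HP1a_KO (SD, n = 2), with a WT mean of 1.87. Klhdc7b differed by 15.2 (SD in HP1ag_KO 16.7), C030010L15Rik by 11.0 (SD 8.60), Trpv1 by 10.7 (SD 9.31) and Gm8946 by 10.2 (SD 14.1). In Klhdc7b and Gm8946 the SD exceeded the HP1ag_KO mean (15.6 and 10.2). In Klhdc7b, C030010L15Rik, Trpv1 and Gm8946 the HP1a_KO mean was under 1, or at most 1 or 2 reads a liver. 9030624G23Rik too had 1 read in each HP1a_KO liver. Its HP1a_KO values (1.83 and 0.860) overlapped with those of WT (0.889, 2.86 and 1.87). In all of these genes the HP1a_KO side is thus at most 1 or 2 reads a liver. The HP1ag_KO side was also low in some livers, with 29, 2 and 2 reads in Gm8946 and 24, 8 and 4 in Trpv1. No group had the 4 livers that a check for single outlying values needs.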

How the results depend on the processing

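Of 99 values recomputed under other choices, 61 stayed within 1.5 times the reported count and 38 did not. The counts of genes depend on both limits. With WT values under 2 there were 16 genes (13 in 1 liver, 0 in both HP1a_KO livers, 1 in HP1ab_KO), with 13 silent in WT and read in HP1ag_KO and 7 in the reverse search. With WT values under 10 these were 104 (84, 3 and 8), 84 and 24, with 3 in all 3 HP1ag_KO livers. With a limit of 10 in a mutant they were 177 (138, 7 and 19), 131 and 50, with 7 in all 3 HP1ag_KO livers. With a limit of 50 they were 9 (7, 0 and 1), 7 and 6. In each setting most genes lay in 1 liver. Chi3l3 left the count in both HP1a_KO livers (0) with equal totals and with limits on recovered reads, a setting chosen after seeing the data.

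Leaving out 1 library gave 25 to 54 genes (21 to 39 in 1 liver), with 54 without WT replicate 1 and 50 without WT replicate 2 or 3, since fewer livers then had to be silent. It gave 0 to 1 genes in all 3 HP1ag_KO livers, or 1 to 2 in the 2 kept when 1 of these was left out. Both HP1a_KO livers held 1 to 4, and HP1ab_KO held 3 to 9. With HP1a_KO replicate 1 or 2 left out, the remaining HP1a_KO liver held 3 or 6. Silent in WT and read in HP1ag_KO were 15 to 38, with 2 to 23 in the reverse search. Limma calls ranged from 0 to 2 (HP1ag_KO against WT), 0 to 5 (HP1a_KO against WT), 0 to 2 (HP1ab_KO against WT), 0 to 5 (HP1ag_KO against HP1a_KO) and 0 to 1 (HP1ab_KO against HP1a_KO).

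DESeq2 called 99, 87, 11, 457 and 5 genes in these 5 comparisons where limma and edgeR called 0. Limma called 1 in HP1a_KO against WT with a pseudocount of 5, 7 in HP1ag_KO against HP1a_KO without the trend, 5 in HP1ab_KO against HP1a_KO with only those groups, and, with no filter, 54 in HP1ab_KO against WT and 56 in HP1ab_KO against HP1a_KO. The cause of these differences was not tested. No paired analysis was possible because the labels give no replicate numbers shared between groups, and they do not say what the animal numbers, some of which are consecutive across groups, mark. Depth limits the low genes: 20 in HP1a_KO liver 1 is 11 reads.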
